A study of Homo sapiens with 27 samples.

Results

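The 34 genes described here encode the enzymes of folate-dependent one-carbon metabolism and of purine, pyrimidine and deoxynucleotide synthesis, together with the enzymes that supply ribose phosphate. They were chosen by symbol from their known functions, with earlier results of these data known. All 34 were found among the 23228 genes of the deposited table. Total RNA was sequenced from 3 human prostate cancer sublines (ARCaPM-DR, 22Rv1-DR and DU145-DR), which the series describes as castration-resistant and labels Ch-CRPC. In each line 3 libraries expressed shGATA2a and 3 expressed shGATA2b, 2 short hairpin RNAs that target the transcription factor GATA2, and 3 Control libraries expressed a control short hairpin RNA, which makes 27 libraries in 9 groups. The labels read here state neither the time after hairpin expression nor whether a subline is a clone or a pool. The comparison asks which of these genes differed in transcript level when GATA2 was lowered, in each line and with each hairpin. Values are read counts per gene divided by a size factor per library, as the authors deposited them, here called normalised reads. Fold changes are differences of log2(normalised reads + 1), knockdown with either hairpin minus Control, and adjusted p-values are from limma with Benjamini-Hochberg adjustment over all tested genes of a line. Nothing in the labels ties replicates to separate cultures, and the p-values therefore reflect only how these libraries vary, which may be technical.

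Tetrahydrofolate carries single carbon units, mostly taken from serine, between a mitochondrial and a cytosolic set of enzymes. Those units build the purine ring and convert dUMP to dTMP, while aspartate, glutamine, glycine and ribose phosphate supply the rest of each nucleotide. Proliferating tumour cells depend on these routes for RNA and DNA synthesis, and antifolate and antipyrimidine drugs act on several of the enzymes.

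Recovered depth ran from 3.44 M to 19.4 M reads per library, with a median of 12.87 M, and ARCaPM-DR shGATA2a replicate 3 was the shallowest. GATA2 averaged 307 ± 58.6 normalised reads with knockdown (SD, n = 6) and 1105 ± 167 in Control (SD, n = 3) in DU145-DR. It averaged 1133 ± 356 normalised reads with knockdown (SD, n = 6) and 3601 ± 642 in Control (SD, n = 3) in 22Rv1-DR, and 27.2 ± 10.7 normalised reads with knockdown (SD, n = 6) and 157 ± 14.4 in Control (SD, n = 3) in ARCaPM-DR. GATA2 fell in all 3 lines, with fold changes of -1.85, -1.71 and -2.56 on the log2 scale (adjusted p = 5.5e-05, 0.0256 and 8.8e-05), and all 6 knockdown libraries lay below all 3 Control libraries in each line. The 22Rv1-DR call was lost without any 1 library except Control replicate 3 or shGATA2b replicate 2 (adjusted p 0.063 to 0.11). In DU145-DR 5 of 9 GATA2 values and in 22Rv1-DR 7 of 9 were not a whole number of recovered reads, whereas the 34 genes had 0 such values. CDH1 and KLK3 were below 10 in every DU145-DR library, and KLK3 was at 0 in every DU145-DR and ARCaPM-DR library. Of 12 fibroblast, endothelial and blood markers, 9 in ARCaPM-DR, 8 in 22Rv1-DR and 10 in DU145-DR were below 10 in every library, with the T cell marker CD3E at 0 in all 3 lines. The summed level of the 12 was 1820.0 to 3394 normalised reads with knockdown and 2476 to 2903 in Control in ARCaPM-DR, 1393 to 2117 and 1439 to 4362 in 22Rv1-DR, and 385 to 542 and 555 to 785 in DU145-DR. These sums hold markers that moved apart. CD68, a macrophage marker that other cells also express, fell in ARCaPM-DR, with a mean of 337 normalised reads with knockdown and 1034 in Control (-1.75, adjusted p = 0.0038), while COL1A1, a collagen chain of fibroblasts, averaged 2249 with knockdown and 1649 in Control there (0.42, adjusted p = 0.137). In DU145-DR COL1A1 fell (-0.74, adjusted p = 0.0153) and CD68 had a fold change of -0.38 (adjusted p = 0.0908). In 22Rv1-DR COL1A1 averaged 1174 normalised reads with knockdown and 1879 in Control, with a highest Control value of 3965 (-0.31, adjusted p = 0.82). LUM, also a fibroblast marker, averaged 551 with knockdown and 502 in Control there. The part of these markers in the results was not tested.

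The most calls were in ARCaPM-DR, where 9 of the 34 genes fell with knockdown, namely MTHFD1, DUT, RPIA, PRPS2, TYMS, IMPDH2, MTHFD1L, SHMT1 and GMPS. The background share of genes that fell there was 8.62%. With both hairpins pooled, none of the 34 rose in ARCaPM-DR by limma, edgeR or DESeq2, against a background of 9.86%, and 0 had an unadjusted p under 0.05 in that direction by any of them. In 22Rv1-DR only DUT fell, in a line where 0.276% of all tested genes fell, and 0 of the 34 rose by any of the 3 tools, where the background was 0.124% and 0 had an unadjusted p under 0.05. In DU145-DR, PGD and SHMT2 rose against a background of 8.72%, and SHMT1 and IMPDH2 fell against a background of 7.98%, so the share of the 34 called in either direction was no higher than among all genes. With shGATA2a alone against Control in ARCaPM-DR, 7 of the 34 fell (MTHFD1, DUT, RPIA, PRPS2, MTHFD1L, IMPDH2 and SHMT1, background 5.63%) and 1 rose (DCK, 0.59, adjusted p = 0.0407, background 7.2%). With shGATA2b alone 7 fell (MTHFD1, DUT, RPIA, PRPS2, TYMS, IMPDH2 and GMPS, background 7.21%) and 1 rose (TKT, 0.76, adjusted p = 0.0107, background 7.28%). In DU145-DR shGATA2a alone gave 2 higher and 2 lower (backgrounds 8.28% and 7.78%) and shGATA2b alone 2 higher and 0 lower (3.29% and 2.52%). The 2 higher were PGD and SHMT2 with each hairpin, and for shGATA2b 2 of the 34 were lower at an unadjusted limma p under 0.05 and 1 was lower by edgeR and by DESeq2. In 22Rv1-DR 0 passed with either hairpin alone by limma or edgeR, where the limma background was 0% in both directions for shGATA2a and 0% higher and 0.00727% lower for shGATA2b. DESeq2 placed 3 lower with each hairpin there, and 7 with shGATA2a and 6 with shGATA2b were lower at an unadjusted limma p under 0.05. The limma background of adjusted calls does not apply to the DESeq2, edgeR and unadjusted counts of single hairpins. Their shares of all genes are not given here, so those counts cannot be set against a background. Single libraries moved the pooled counts: the number that fell was 5 in ARCaPM-DR without Control replicate 1 or Control replicate 2, 0 in DU145-DR without Control replicate 2, 1 in DU145-DR without Control replicate 1 or shGATA2a replicate 1, 2 in 22Rv1-DR without Control replicate 3 and 0 there without any other library. The number that rose in DU145-DR was 4 without Control replicate 3. Because RNA came from bulk cultures, fewer cells of a kind and less RNA per cell cannot be told apart in any of these values.

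**Figure D1:**
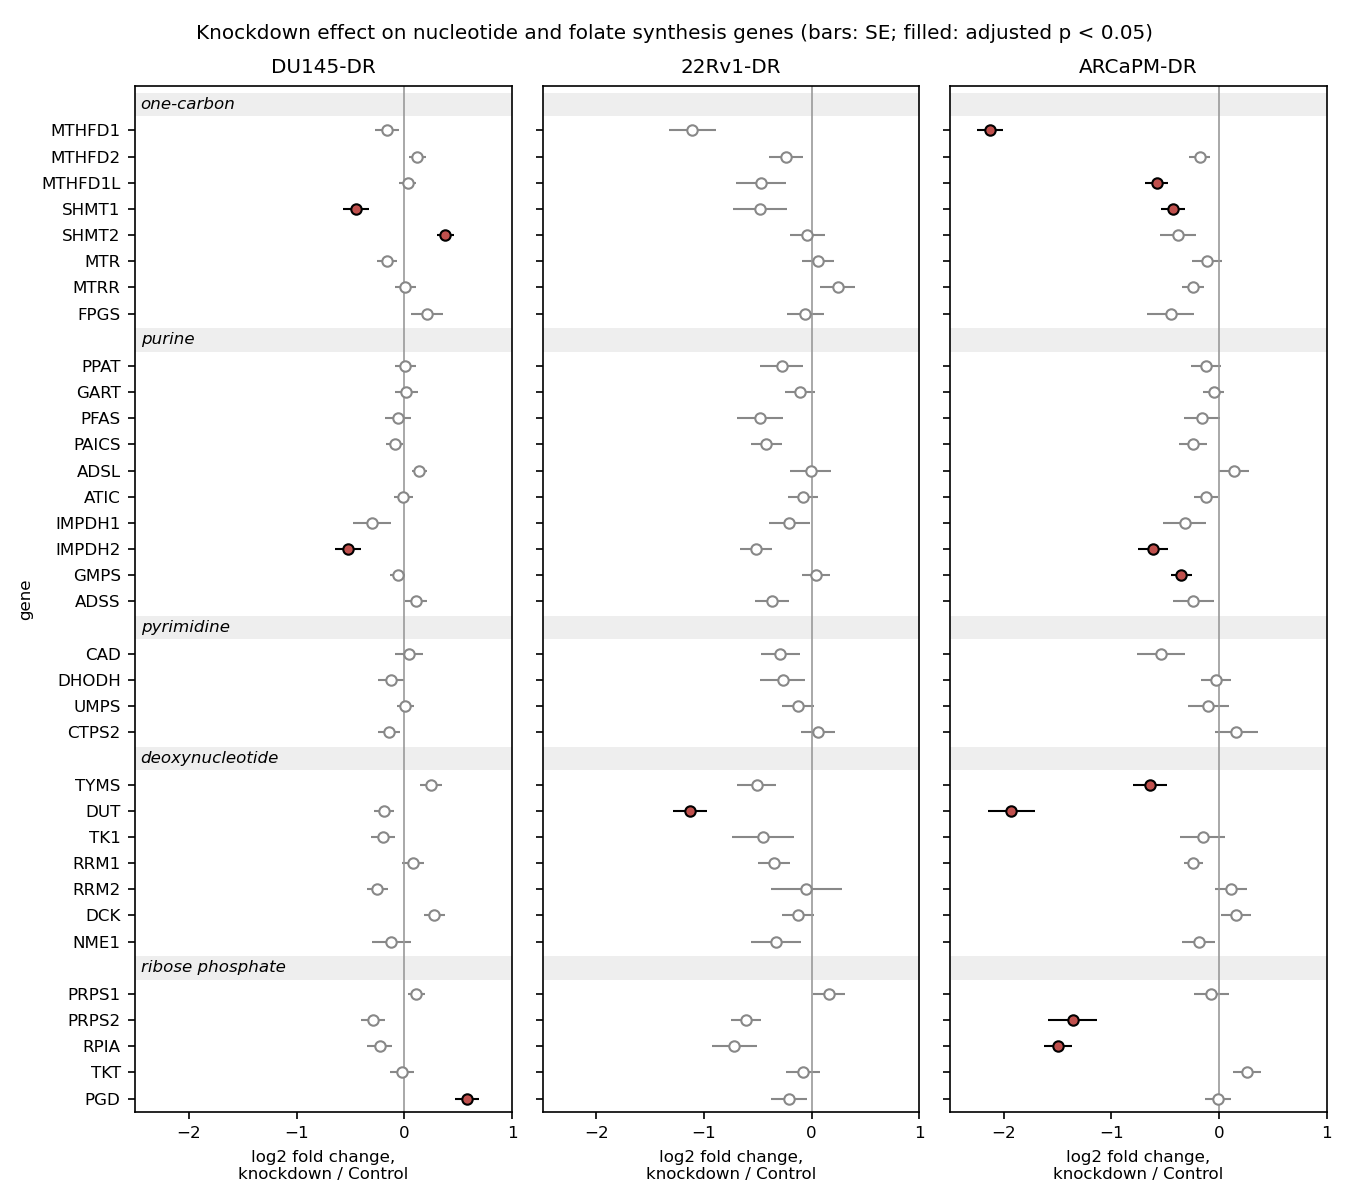
Each point is the log2 fold change of a gene, knockdown over Control, with its standard error as a bar, in DU145-DR (left), 22Rv1-DR (middle) and ARCaPM-DR (right). Filled points passed an adjusted p of 0.05. In ARCaPM-DR the filled points of MTHFD1, DUT, RPIA and PRPS2 lie at -2.13, -1.93, -1.50 and -1.36, and the same 4 genes lie furthest to the left in 22Rv1-DR.

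The direction of the whole set leaned downwards in 2 of the lines. The median log2 fold change over the 34 genes was -0.22 in ARCaPM-DR, where the median of all tested genes was 0.0, and 29 of 34 were negative. It was -0.25 in 22Rv1-DR against -0.02 for all genes, again with 29 of 34 negative, and -0.02 in DU145-DR against 0.0, with 18 of 34 negative. With TMM scaling, quantile normalisation, edgeR or DESeq2 the negative count was 28 or 29 in ARCaPM-DR and 27 or 28 in 22Rv1-DR, and it was 18 to 22 in DU145-DR. Without any test, all 6 knockdown libraries lay below all 3 Control libraries for 11 genes in ARCaPM-DR (background 10%), 7 in 22Rv1-DR (4.04%) and 3 in DU145-DR (8.74%). They lay above all Control libraries for 0 genes in ARCaPM-DR (background 11%), 0 in 22Rv1-DR (2.9%) and 3 in DU145-DR (10%). IMPDH2 and PRPS2 were the genes whose knockdown libraries all lay below Control in every line.

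Libraries with the same replicate number deviated together in all 3 lines, so a fit with the number as a block was also made. It placed 17 of the 34 genes lower and 1 higher in ARCaPM-DR, where it called 22.6% of all genes lower and 22.4% higher. It placed 4 lower and 0 higher in 22Rv1-DR, where it called 0.741% and 0.465% of all genes. It placed 8 lower and 5 higher in DU145-DR, against 19.2% and 19.6% of all genes. The 4 genes lower in 22Rv1-DR with the block were DUT, MTHFD1, PRPS2 and RPIA. All 4 were also lower in ARCaPM-DR in both fits. With each hairpin alone, the block placed 14 lower and 1 higher for shGATA2a in ARCaPM-DR (19.7% and 20.3% of all genes) and 15 lower and 1 higher for shGATA2b (20.7% and 19.7%). In DU145-DR it placed 7 lower and 3 higher for shGATA2a (18.5% and 19.5%) and 5 lower and 4 higher for shGATA2b (13.3% and 13%). In 22Rv1-DR it placed 2 lower and 0 higher for shGATA2a (0.4% and 0.204%), and 2 lower and 0 higher for shGATA2b (0.342% and 0.138%).

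MTHFD1, DUT, RPIA and PRPS2 had the largest decreases in ARCaPM-DR, and the sequences before their transcription starts are shown for that reason. RefSeq promoter windows on GRCh38.p14 were matched for 30 of the 34 genes, 29 by symbol and 1 by an older symbol. Each window holds the 250 bases before the start, read 5′ to 3′ along the gene's strand, and capitals mark the searched motifs, found on either strand. The MTHFD1 window is chr14:64388103-64388352, that of DUT is chr15:48330845-48331094, that of RPIA is chr2:88691423-88691672 and that of PRPS2 is chrX:12791162-12791411, all on the plus strand.
MTHFD1: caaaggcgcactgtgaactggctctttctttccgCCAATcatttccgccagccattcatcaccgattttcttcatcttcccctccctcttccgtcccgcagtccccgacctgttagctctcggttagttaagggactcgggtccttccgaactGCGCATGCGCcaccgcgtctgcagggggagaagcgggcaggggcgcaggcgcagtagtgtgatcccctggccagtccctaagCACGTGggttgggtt
DUT: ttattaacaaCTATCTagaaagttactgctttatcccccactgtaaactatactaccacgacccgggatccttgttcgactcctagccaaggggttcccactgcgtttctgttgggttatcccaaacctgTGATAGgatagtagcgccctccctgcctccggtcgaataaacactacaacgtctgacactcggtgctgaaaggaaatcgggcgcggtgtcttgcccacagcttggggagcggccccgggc
RPIA: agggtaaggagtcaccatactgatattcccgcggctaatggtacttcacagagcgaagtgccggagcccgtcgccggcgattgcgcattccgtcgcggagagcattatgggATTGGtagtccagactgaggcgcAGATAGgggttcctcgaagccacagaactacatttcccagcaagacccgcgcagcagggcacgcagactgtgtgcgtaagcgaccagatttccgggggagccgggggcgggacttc
PRPS2: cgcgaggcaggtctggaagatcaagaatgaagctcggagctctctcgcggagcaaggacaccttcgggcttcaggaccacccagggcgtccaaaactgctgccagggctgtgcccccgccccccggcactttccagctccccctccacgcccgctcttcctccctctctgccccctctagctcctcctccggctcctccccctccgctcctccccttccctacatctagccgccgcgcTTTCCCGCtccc
In the MTHFD1 window the capitals are a CCAAT box 216 to 212 bases before the start, an NRF1 motif 97 to 88 bases before it and an E-box, the binding letters of MYC and its partners, 15 to 10 bases before it. The DUT window, the outermost of 4 RefSeq starts, holds 2 GATA motifs, 240 to 235 and 120 to 115 bases before the start. The other 3 DUT windows hold no GATA motif, and 1 of them (chr15:48331947-48332196) holds 2 E2F motifs. The RPIA window holds a CCAAT box 139 to 135 bases and a GATA motif 116 to 111 bases before the start. The PRPS2 window holds an E2F motif 12 to 5 bases before the start. None of these matches overlapped another, and a match describes letters, not a bound site.

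The motifs were searched on both strands as CACGTG for the E-box and CCAAT for the CCAAT box, and the NRF1 motif was its palindromic core. The GATA motif was any of AGATAA and its variant AGATAG, or TGATAA and its variant TGATAG. The E2F motif was any of TTTCGCGC and its variants TTTGGCGC, then TTTCCCGC and finally TTTGCCGC. The 30 matched genes gave 47 windows, since 10 of them have several starts, and windows of a gene can share bases. The E-box was in 17.0% of these windows and in 6.34% of all 35116 RefSeq windows of that length. The GATA motif was in 8.51% of the windows of these genes and 22.3% of all windows. The E2F motif was in 12.8% and 2.79%, the CCAAT box in 51.1% and 32.0%, and the NRF1 motif in 2.13% and 1.03%. Besides MTHFD1, the E-box stood in windows of ATIC, DCK, DHODH, FPGS, MTHFD1L and PPAT. Of those, MTHFD1 and MTHFD1L fell in ARCaPM-DR and the others did not pass the test in any line with both hairpins pooled. DCK rose in ARCaPM-DR with shGATA2a alone. With the replicate block FPGS was lower in ARCaPM-DR (adjusted p = 0.0034) and higher in DU145-DR (0.0273), and DCK was higher in DU145-DR (0.00634).

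Among the 8 one-carbon genes, 3 fell in ARCaPM-DR (background 8.62%). All 8 fold changes there were negative, with a median of -0.41. The cytosolic trifunctional enzyme MTHFD1, which interconverts the formyl, methenyl and methylene forms of tetrahydrofolate, fell furthest of the 34 genes. In ARCaPM-DR it had 604, 732 and 812 normalised reads with shGATA2a and 823, 934 and 963 with shGATA2b, against 3735, 3539.6 and 3297 in Control. Every Control library was more than 3 times as high as any knockdown library. MTHFD1 averaged 811 ± 132 normalised reads with knockdown (SD, n = 6) and 3524 ± 219.6 in Control (SD, n = 3). The difference passed the test (fold change -2.13, SE 0.12, adjusted p = 1.1e-05), and each hairpin alone gave a negative fold change (-2.31 for shGATA2a, -1.96 for shGATA2b). Leaving out any library of the line kept the adjusted p between 1.3e-05 and 4.4e-04.

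In 22Rv1-DR, MTHFD1 had 379.5, 435 and 390.1 normalised reads with shGATA2a and 471, 483 and 341 with shGATA2b, against 1288, 886 and 620.2 in Control. All knockdown libraries were again below all Control libraries, but the Control libraries were spread widely. Its fold change of -1.11 (SE 0.22) missed the threshold (adjusted p = 0.0623), and passed it with the replicate block (adjusted p = 0.0246), with edgeR (0.0467), with DESeq2 (2.9e-04), in 1 fit of all 27 libraries (3.2e-04) and without Control replicate 3 (0.0275). In DU145-DR, MTHFD1 had 1926, 2217 and 2537 normalised reads with shGATA2a and 2087, 2476 and 2427 with shGATA2b, against 2324, 2388 and 2905 in Control. The groups overlapped there (fold change -0.16, SE 0.11, adjusted p = 0.339). MTHFD1 shares exon bases with ZBTB25 on the other strand in the GENCODE annotation, and no source used here says whether counting used strand, so their reads cannot be told apart. ZBTB25 itself averaged 96.2 ± 22.2 normalised reads with knockdown and 115 ± 32.8 in Control in ARCaPM-DR (adjusted p = 0.453).

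The other cytosolic gene, SHMT1, whose serine hydroxymethyltransferase moves a carbon from serine to tetrahydrofolate, fell in ARCaPM-DR and DU145-DR. It had 405, 421 and 373 normalised reads with shGATA2a and 441, 404 and 385 with shGATA2b, against 616, 520.4 and 505 in Control in ARCaPM-DR (fold change -0.43, SE 0.11, adjusted p = 0.0264). It had 331, 386 and 395 normalised reads with shGATA2a and 347, 521 and 412 with shGATA2b, against 528, 543 and 542 in Control in DU145-DR (fold change -0.45, SE 0.12, adjusted p = 0.0254). In both lines every knockdown library was below every Control library, and shGATA2b replicate 2 of DU145-DR came closest to Control. In 22Rv1-DR, SHMT1 had 183, 189 and 121 normalised reads with shGATA2a and 204, 170.4 and 104 with shGATA2b, against 298, 197 and 181 in Control. The groups overlapped there, and the fold change of -0.48 did not pass the test (adjusted p = 0.533). The ARCaPM-DR call was lost without any 1 of the 3 Control libraries, shGATA2a replicate 1 or shGATA2b replicate 3 (adjusted p 0.054 to 0.122). The DU145-DR call was lost without Control replicate 1, Control replicate 2 or shGATA2a replicate 1 (adjusted p 0.0517 to 0.0969). Both calls were lost in 1 fit of all 27 libraries (adjusted p 0.114 and 0.209). SHMT1 shares exon bases with SMCR8 on the other strand, which had fold changes of -0.11 in ARCaPM-DR and 0.16 in DU145-DR, neither past the test.

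Of the mitochondrial enzymes, MTHFD1L fell in ARCaPM-DR and SHMT2 rose in DU145-DR. MTHFD1L, the mitochondrial formyl-tetrahydrofolate synthetase that releases formate, had 833, 905 and 797 normalised reads with shGATA2a and 1043, 1082 and 1118 with shGATA2b, against 1269, 1657 and 1381 in Control in ARCaPM-DR. It fell there (fold change -0.58, SE 0.11, adjusted p = 0.00562), with the shGATA2a libraries lowest, the shGATA2b libraries between and the Control libraries highest, without overlap. In DU145-DR it had 609, 621 and 609.7 normalised reads with shGATA2a and 675, 641 and 662 with shGATA2b, against 621, 565 and 682 in Control (fold change 0.03, SE 0.08, adjusted p = 0.822). The groups overlapped, and the sign turned to -0.03 without Control replicate 2. In 22Rv1-DR it had 541, 555 and 637 normalised reads with shGATA2a and 603, 583 and 668 with shGATA2b, against 581, 697 and 1391 in Control (fold change -0.47, SE 0.23, adjusted p = 0.521). A single Control library, replicate 3, stood high there, and the log2 fold change ran from -0.72 to -0.09 when libraries were left out in turn.

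SHMT2, the mitochondrial serine hydroxymethyltransferase, rose in DU145-DR, the line in which SHMT1 fell. It had 3711, 3342 and 2997 normalised reads with shGATA2a and 3202, 3202 and 3271 with shGATA2b, against 2478, 2661 and 2419 in Control in DU145-DR. Every knockdown library was above every Control library (fold change 0.38, SE 0.08, adjusted p = 0.0089). The call held without each library in turn and was lost in 1 fit of all 27 libraries (adjusted p = 0.144). In ARCaPM-DR, SHMT2 had 1639.8, 2309 and 1469 normalised reads with shGATA2a and 1635, 2159.7 and 1593 with shGATA2b, against 2123, 2683 and 2171 in Control. The groups overlapped through replicate 2 of both hairpins, and the fold change of -0.38 (SE 0.17) passed the test with the replicate block (adjusted p = 9.2e-04) but not without it (0.137), unless shGATA2a replicate 2 was left out (0.0266). In 22Rv1-DR it had 22437, 25662 and 26721 normalised reads with shGATA2a and 22122, 24097 and 26042 with shGATA2b, against 23987, 31475 and 21212 in Control, several times its level in the other lines, with a fold change of -0.04. The sign there turned with quantile normalisation (0.17) and without Control replicate 2 (0.12). NDUFA4L2, on the other strand at the SHMT2 locus, averaged 4773 ± 949 normalised reads with knockdown and 3841 ± 2694 in Control in 22Rv1-DR, but under 10 in the other lines, and reads of the pair cannot be told apart without strand.

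MTHFD2, the mitochondrial methylene-tetrahydrofolate dehydrogenase, did not pass the test in any line. It had 2897, 3199 and 3463 normalised reads with shGATA2a and 3677, 3769 and 3737 with shGATA2b, against 3490.2, 4047 and 4172 in Control in ARCaPM-DR (fold change -0.18, SE 0.10, adjusted p = 0.239). It had 3064, 2678 and 3715 normalised reads with shGATA2a and 3771, 2787 and 3838 with shGATA2b, against 3944, 3915 and 3728 in Control in 22Rv1-DR (fold change -0.24, SE 0.16, adjusted p = 0.586), and 3811, 4199.5 and 4435 normalised reads with shGATA2a and 4004, 3875 and 4109 with shGATA2b, against 3614, 3552 and 4069 in Control in DU145-DR (fold change 0.12, SE 0.08, adjusted p = 0.323). The groups overlapped in all 3 lines. Methionine synthase MTR, which takes a methyl group from folate, had fold changes of -0.11, 0.06 and -0.16 in ARCaPM-DR, 22Rv1-DR and DU145-DR. Its reductase MTRR had -0.24, 0.24 and 0.01. FPGS, which adds glutamates to folate and keeps it in the cell, had -0.45, -0.06 and 0.21. With the replicate block MTRR and FPGS were lower in ARCaPM-DR (adjusted p = 0.0308 and 0.0034) and FPGS was higher in DU145-DR (0.0273). FPGS also passed the test in ARCaPM-DR without shGATA2a replicate 2 (0.0293). MTRR shares exon bases with FASTKD3 and C5orf49 and MTHFD2 with SLC4A5, each on the other strand, and 7 pseudogenes of MTHFD2 are annotated.

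Of the 10 purine genes, IMPDH2 and GMPS fell in ARCaPM-DR (background 8.62%), and IMPDH2 alone fell in DU145-DR, near the background of 7.98%. Both act on the branch that makes GMP, as does IMPDH1, which did not pass the main test in any line. IMPDH2, inosine monophosphate dehydrogenase, is the first enzyme of that branch. It had 1524, 1996 and 1341 normalised reads with shGATA2a and 1494, 1767 and 1308 with shGATA2b, against 2372, 2458 and 2278 in Control in ARCaPM-DR (fold change -0.61, SE 0.14, adjusted p = 0.0159). It had 2384, 2727 and 2369 normalised reads with shGATA2a and 2771, 2384 and 2273 with shGATA2b, against 3189.9, 3268 and 4333 in Control in 22Rv1-DR (fold change -0.52, SE 0.15, adjusted p = 0.273), and 717, 965 and 929 normalised reads with shGATA2a and 713, 945 and 966 with shGATA2b, against 1124, 1335 and 1274 in Control in DU145-DR (fold change -0.52, SE 0.12, adjusted p = 0.0135). Every knockdown library was below every Control library in each line, and knockdown levels were 66.3%, 69.1% and 70.1% of Control. The fold change in ARCaPM-DR differed by -0.09 from that in DU145-DR and by -0.08 from that in 22Rv1-DR, with a standard error of 0.20 for each difference. The ARCaPM-DR call was lost without any 1 Control library (adjusted p 0.0503 to 0.0664), and the DU145-DR call without Control replicate 2 (0.0779).

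GMPS, which converts XMP to GMP, had 1304, 1273 and 1543 normalised reads with shGATA2a and 1236, 1266 and 1264 with shGATA2b, against 1668, 1722 and 1616 in Control in ARCaPM-DR. The groups did not overlap, and shGATA2a replicate 3, the shallowest library, came closest to Control (fold change -0.35, SE 0.10, adjusted p = 0.0311). That call was lost without any 1 of 7 of the 9 libraries, the exceptions being shGATA2a replicates 2 and 3, with adjusted p between 0.0541 and 0.0995. GMPS had 1098, 1036 and 1125 normalised reads with shGATA2a and 1187, 939.6 and 1124 with shGATA2b, against 1075, 1072 and 1016 in Control in 22Rv1-DR (fold change 0.04, SE 0.13, adjusted p = 0.931), and 2321, 2482 and 2384 normalised reads with shGATA2a and 2377, 2422 and 2281 with shGATA2b, against 2391, 2454 and 2604 in Control in DU145-DR (fold change -0.06, SE 0.07, adjusted p = 0.59). The groups overlapped in both of those lines.

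The enzymes that build the purine ring did not pass the test in any line. PPAT, the committed step, had fold changes of -0.12, -0.28 and 0.01 in ARCaPM-DR, 22Rv1-DR and DU145-DR. GART, a trifunctional enzyme that uses a folate-borne carbon, had -0.05, -0.11 and 0.02, PFAS, an amidotransferase of the pathway, had -0.16, -0.48 and -0.06, and ATIC, the final ring-closing enzyme, had -0.12, -0.08 and -0.01. PAICS, a bifunctional carboxylase and ligase, had -0.24, -0.42 and -0.09, with all 6 knockdown libraries of 22Rv1-DR (3719 to 4778 normalised reads) below its 3 Control libraries (5146 to 6176). ADSL, which acts in the ring pathway and on the AMP branch, had 0.14, -0.01 and 0.14, and ADSS, the first enzyme of the AMP branch, had -0.24, -0.37 and 0.11. IMPDH1, the second inosine monophosphate dehydrogenase, had -0.32, -0.21 and -0.30. With the replicate block IMPDH1 was lower in ARCaPM-DR and DU145-DR (adjusted p = 0.00556 and 0.00311), and PAICS and ADSS were lower in ARCaPM-DR (0.0364 and 0.0439). The annotation lists 7 pseudogenes each of PAICS and IMPDH1, and SON on the other strand at GART.

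The 4 pyrimidine genes did not pass the test in any line. CAD, which carries the opening steps of pyrimidine synthesis, ranged from 1656 to 3126 normalised reads with knockdown and from 2558 to 3908 in Control in ARCaPM-DR (fold change -0.54, SE 0.22, adjusted p = 0.121). It was lower there with the replicate block (adjusted p = 6.8e-05) and without shGATA2a replicate 2 (0.021), and its fold changes were -0.29 in 22Rv1-DR and 0.04 in DU145-DR. DHODH, the mitochondrial dihydroorotate dehydrogenase, had fold changes of -0.03, -0.27 and -0.12 in ARCaPM-DR, 22Rv1-DR and DU145-DR. UMPS, which makes UMP, had -0.10, -0.13 and 0.01, and CTPS2, a CTP synthase, had 0.16, 0.06 and -0.14.

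Of the 7 deoxynucleotide genes, DUT and TYMS fell in ARCaPM-DR (background 8.62%) and DUT fell in 22Rv1-DR (background 0.276%). DUT encodes the dUTPase that keeps uracil out of DNA and supplies dUMP to thymidylate synthase. It had 177, 96.5 and 194 normalised reads with shGATA2a and 215, 238 and 267 with shGATA2b, against 866, 605 and 729 in Control in ARCaPM-DR. The groups were well apart, with shGATA2a replicate 2 lowest (fold change -1.93, SE 0.22, adjusted p = 4.0e-04). Without each library in turn the adjusted p stayed between 6.2e-05 and 0.00532.

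In 22Rv1-DR, DUT had 287, 382 and 351 normalised reads with shGATA2a and 361, 398 and 352 with shGATA2b, against 945, 764 and 649.6 in Control. No knockdown library reached the Control range (fold change -1.13, SE 0.16, adjusted p = 0.0256), and knockdown averaged 45.2% of Control. That call depended on single libraries. It was lost without any 1 library except Control replicate 3 (adjusted p 0.0635 to 0.11), without the 3 libraries numbered 3 (0.0516), and when genes with values that were not whole reads were left out of the fit (0.0766). In DU145-DR, DUT had 985, 1045 and 1108 normalised reads with shGATA2a and 1236, 1222 and 1019.8 with shGATA2b, against 1189, 1286 and 1295 in Control. The groups overlapped, and the fold change of -0.19 passed the test with the replicate block (adjusted p = 0.0423) but not without it (0.151). The annotation lists 8 pseudogenes of DUT, and no source used here says how reads shared with such copies were counted.

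TYMS, thymidylate synthase and the target of fluoropyrimidine drugs, had 944, 991 and 890.0 normalised reads with shGATA2a and 924, 1045 and 784 with shGATA2b, against 1698, 1625 and 1088 in Control in ARCaPM-DR. Control replicate 3 was close to the knockdown libraries and the other Control libraries well above them, without overlap (fold change -0.64, SE 0.16, adjusted p = 0.0195). The call was lost without Control replicate 1 (adjusted p = 0.103) or Control replicate 2 (0.0807). TYMS had 230.2, 254 and 204 normalised reads with shGATA2a and 259, 266 and 213 with shGATA2b, against 456, 279 and 302 in Control in 22Rv1-DR, again without overlap, and did not pass the test (fold change -0.51, SE 0.18, adjusted p = 0.4). In DU145-DR it had 1839, 1726 and 2020.3 normalised reads with shGATA2a and 1776, 2200.4 and 2069 with shGATA2b, against 1491, 1573 and 1842 in Control, with overlap. Its fold change there was positive (0.25), and passed the test with the replicate block (adjusted p = 0.00799) and without Control replicate 3 (0.0393), but not otherwise (0.104). TYMS shares exon bases with ENOSF1 on the other strand, whose fold change in ARCaPM-DR was -0.29 (adjusted p = 0.367).

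The 2 subunits of ribonucleotide reductase did not pass the test in any line. RRM1 had fold changes of -0.24, -0.35 and 0.08 in ARCaPM-DR, 22Rv1-DR and DU145-DR, with all ARCaPM-DR knockdown libraries (1548 to 1815 normalised reads) below Control (1829 to 2216). RRM2 had 0.11, -0.05 and -0.25. The salvage kinase TK1 had -0.15, -0.45 and -0.20, and NME1, a nucleoside diphosphate kinase, had -0.19, -0.33 and -0.12. With the replicate block RRM1 was lower in ARCaPM-DR (adjusted p = 0.0206), and RRM2 and TK1 were lower in DU145-DR (0.00517 and 0.021). RRM2 also passed there with quantile normalisation (0.0436). DCK, deoxycytidine kinase, differed between hairpins in ARCaPM-DR and is given with them.

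The summed level of 20 cell cycle genes was read beside these, since TYMS, TK1, RRM1 and RRM2 are known to rise in S phase. In ARCaPM-DR it ran from 43777 to 60246 normalised reads over the knockdown libraries and from 49968 to 60096 over the Control libraries. Of the 20, 5 fell there, against a background of 8.62%, among them AURKA, PCNA, PLK1 and MCM7 (-0.57, -0.93, -0.81 and -0.33). Fold changes were negative for 17 of the 20, with a median of -0.21. MCM7 was lost without any 1 library except shGATA2a replicate 2 (adjusted p 0.0639 to 0.184), and PLK1 without Control replicate 1 (0.0508). MCM7 was also lost in 1 fit of all 27 libraries (0.113) and with no filter (0.0662). In 22Rv1-DR the sum was 11587 to 16437 with knockdown and 15872 to 22297 in Control. Of the 20, 1 fell against a background of 0.276%, CDK1 (-0.91), for which 3 of 9 values were not whole reads. That call was lost without any 1 library of the line (adjusted p 0.0561 to 0.135). There 19 of the 20 were negative, with a median of -0.39. In DU145-DR the sum was 43976 to 49209 with knockdown and 44353 to 52685 in Control. Against a background of 8.72% higher, 3 rose, BIRC5, BUB1 and CDC6 (0.43, 0.46 and 0.29), with a median over the 20 of -0.02. CDC6 was lost without any 1 library except Control replicate 3 and shGATA2b replicate 2 (adjusted p 0.0532 to 0.209), and with no filter (0.0523). BIRC5 and CDC6 were lost in 1 fit of all 27 libraries (adjusted p = 0.121 and 0.535). The part of the cell cycle genes in the values of the 34 genes was not tested.

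**Figure D2:**
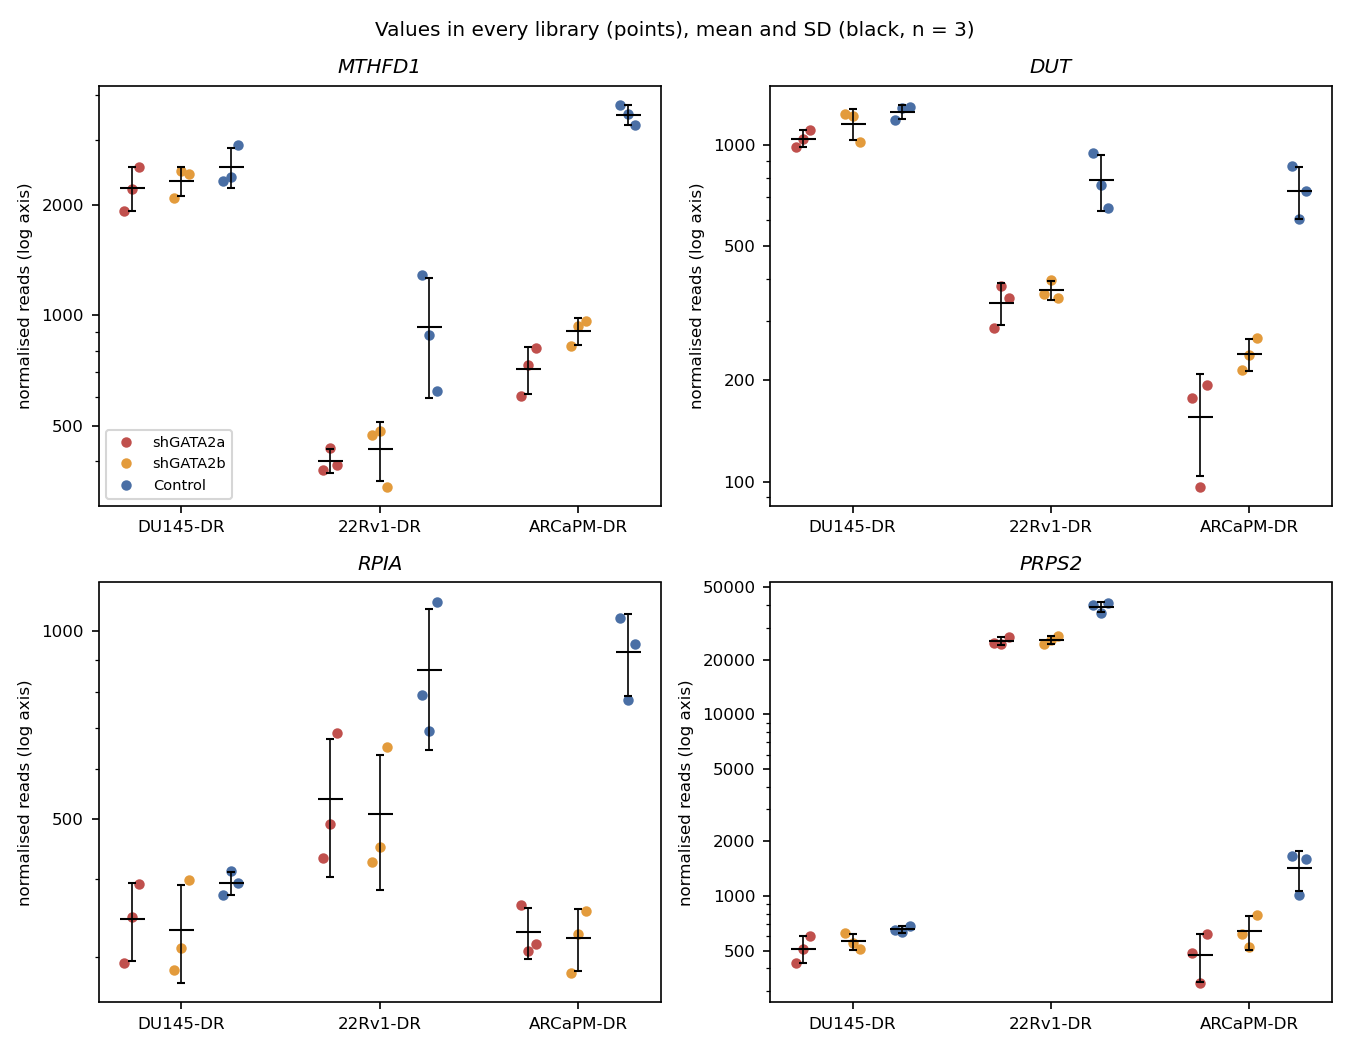
Normalised reads on a log axis for MTHFD1, DUT, RPIA and PRPS2, with each library as a point, groups ordered shGATA2a, shGATA2b and Control within each line, and the mean and SD of 3 libraries in black. In ARCaPM-DR and 22Rv1-DR all knockdown libraries lie below all Control libraries for these genes, and PRPS2 stands between 24496 and 41131 in 22Rv1-DR.

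Of the 5 ribose phosphate genes, RPIA and PRPS2 fell in ARCaPM-DR (background 8.62%) and PGD rose in DU145-DR (background 8.72%). RPIA, ribose phosphate isomerase, makes ribose phosphate in the pentose phosphate pathway. It had 363, 307 and 315 normalised reads with shGATA2a and 283, 326 and 355 with shGATA2b, against 1051, 776 and 953 in Control in ARCaPM-DR. Both hairpins gave the same low range, well under Control (fold change -1.50, SE 0.13, adjusted p = 1.2e-04), and knockdown averaged 35.1% of Control. In 22Rv1-DR, RPIA had 432, 491 and 687 normalised reads with shGATA2a and 425, 450.0 and 652 with shGATA2b, against 789, 692 and 1116 in Control. Within each group the library numbered 3 was the highest, and shGATA2a replicate 3 nearly reached the lowest Control library. The fold change of -0.72 missed the threshold (adjusted p = 0.313) and passed it with the replicate block (0.0142) and in 1 fit of all 27 libraries (0.0284). In DU145-DR, RPIA had 294, 347 and 393 normalised reads with shGATA2a and 286, 310.2 and 399 with shGATA2b, against 378, 411 and 394 in Control. The groups overlapped, with a fold change of -0.23 (adjusted p = 0.216, and 0.035 with the replicate block).

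PRPS2 is one of the phosphoribosyl pyrophosphate synthetases, which turn ribose phosphate into the activated sugar that purine and pyrimidine synthesis use. It had 484, 331 and 614 normalised reads with shGATA2a and 616, 521 and 785 with shGATA2b, against 1657, 1019 and 1592 in Control in ARCaPM-DR. No knockdown library reached the Control range (fold change -1.36, SE 0.23, adjusted p = 0.00308), and knockdown averaged 39.3% of Control. In 22Rv1-DR, PRPS2 had 24789.8, 24533 and 26726 normalised reads with shGATA2a and 24496, 25587 and 26854 with shGATA2b, against 40035, 36079.5 and 41131 in Control. These levels were far above those of the other lines, and the knockdown libraries were tightly grouped below Control. The fold change of -0.61 (SE 0.14) missed the threshold (adjusted p = 0.126), and passed it with the replicate block (0.0246) and with DESeq2 (5.9e-05). In DU145-DR, PRPS2 had 426, 513 and 601 normalised reads with shGATA2a and 624, 549 and 512 with shGATA2b, against 648, 630.2 and 686 in Control. The highest knockdown library was just under the lowest Control library, and the fold change of -0.29 had an adjusted p of 0.0888, of 0.0128 with the block and of 0.04 without shGATA2a replicate 3.

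Its paralog PRPS1 averaged 2691 ± 269 normalised reads with knockdown (SD, n = 6) and 2870.0 ± 689 in Control (SD, n = 3) in ARCaPM-DR (fold change -0.07, SE 0.16, adjusted p = 0.795). Its fold changes were 0.16 in 22Rv1-DR and 0.11 in DU145-DR, neither past the test, and the groups overlapped in all 3 lines.

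PGD, phosphogluconate dehydrogenase of the oxidative pentose phosphate pathway, had 6639, 5125 and 5138 normalised reads with shGATA2a and 6609, 5126 and 5176 with shGATA2b, against 4095, 3676 and 3469 in Control in DU145-DR. Every knockdown library was above every Control library, the shGATA2a and shGATA2b libraries of each number were nearly equal, and replicate 1 was highest in each group. PGD rose there (fold change 0.58, SE 0.11, adjusted p = 0.00521), and the call held without each library in turn (adjusted p 0.00592 to 0.031). It had 1353, 1204 and 974 normalised reads with shGATA2a and 1412, 1174 and 933 with shGATA2b, against 1489, 1254 and 1304 in Control in 22Rv1-DR (fold change -0.21, SE 0.17, adjusted p = 0.648), and 1569, 1809.5 and 1379.7 normalised reads with shGATA2a and 2142, 2034 and 1990.3 with shGATA2b, against 1813, 2038 and 1613 in Control in ARCaPM-DR (fold change -0.01, SE 0.12, adjusted p = 0.963). The groups overlapped in both of those lines.

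**Figure D3:**
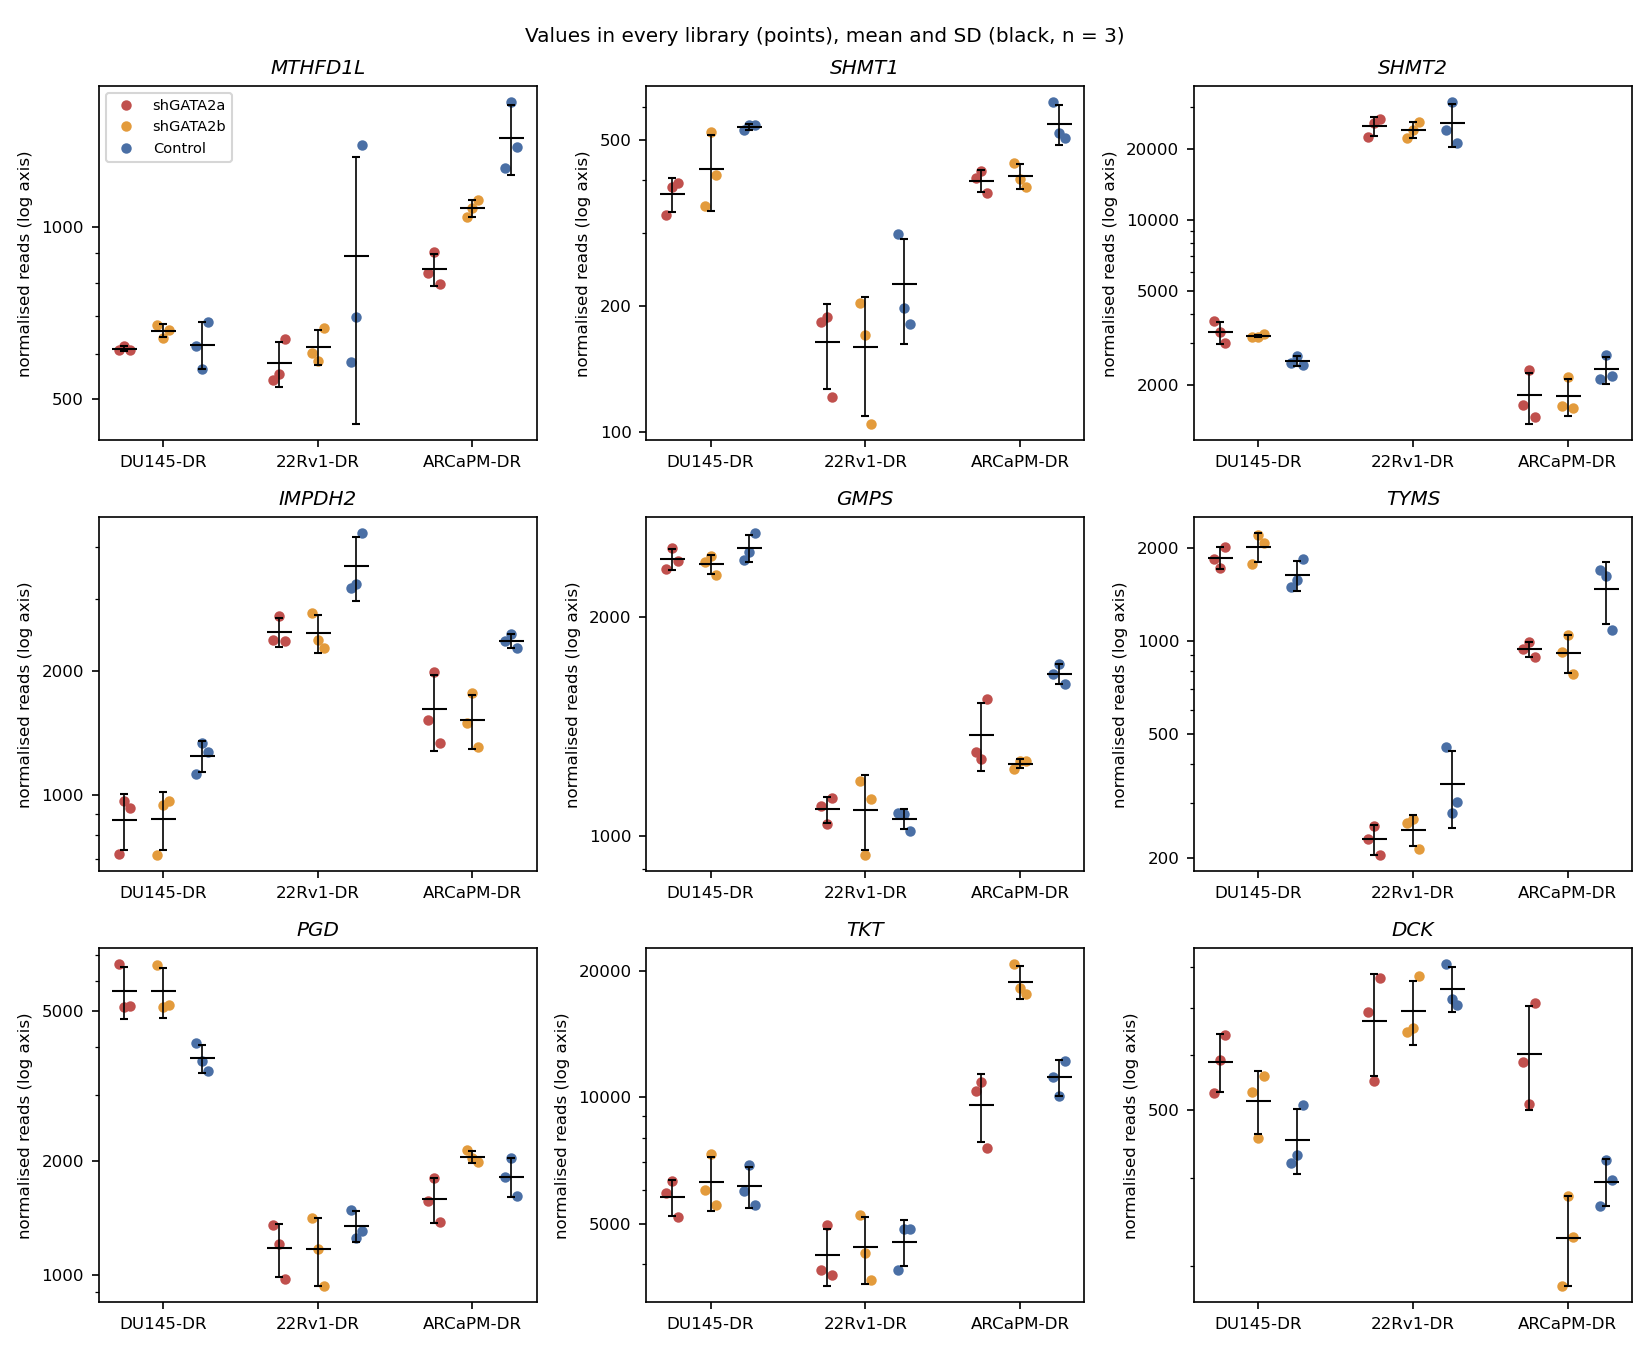
Normalised reads on a log axis for 9 genes, with each library as a point, groups ordered shGATA2a, shGATA2b and Control within each line, and the mean and SD of 3 libraries in black. IMPDH2 is lower with both hairpins than in Control in every line, SHMT2 and PGD are higher in DU145-DR, and TKT and DCK separate the hairpins in ARCaPM-DR.

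The change with knockdown was compared between lines for the 34 genes in 1 fit of all libraries. Between ARCaPM-DR and DU145-DR it differed for 6 genes, all with the more negative value in ARCaPM-DR, where 3.41% of all tested genes differed in that direction. They were MTHFD1 (difference of log2 fold changes -1.98, SE 0.23, adjusted p = 6.5e-06), DUT (-1.74), RPIA (-1.27), PRPS2 (-1.07), TYMS (-0.88) and SHMT2 (-0.76). The TYMS difference was lost without ARCaPM-DR Control replicate 1 (adjusted p = 0.0569), and the SHMT2 difference without ARCaPM-DR Control replicate 2 or DU145-DR Control replicate 1 or 3 (0.0542 to 0.0745). Between ARCaPM-DR and 22Rv1-DR the change differed for MTHFD1 (-1.03, SE 0.23, adjusted p = 0.0109), where 1.2% of all genes differed in that direction, and this held without each library in turn. Between 22Rv1-DR and DU145-DR it differed for MTHFD1 (-0.95, adjusted p = 0.0423) and PGD (-0.79, adjusted p = 0.0426), where the background was 0.621%. Neither of those 2 passed the test with TMM scaling or quantile normalisation. PGD was also lost with edgeR (adjusted p = 0.0697) and without the 3 libraries numbered 3 in 22Rv1-DR (0.0805). MTHFD1 was lost without any 1 of 15 and PGD without any 1 of 18 of the 27 libraries (adjusted p up to 0.138 and 0.118).

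With the replicate block, 10 genes differed with a more negative value in ARCaPM-DR than in DU145-DR (background 9.63%), 6 with a more negative value in ARCaPM-DR than in 22Rv1-DR (6.47%), and 7 with a more negative value in 22Rv1-DR than in DU145-DR (5.62%). MTHFD1 was among them each time, with adjusted p of 6.6e-07, 7.1e-04 and 0.00259. With the block but not in the main test, the change differed between ARCaPM-DR and DU145-DR for PGD (-0.59, block adjusted p = 8.1e-04), FPGS (-0.67, 0.0137), MTHFD1L (-0.61, 0.0226) and CAD (-0.58, 0.0379). Between ARCaPM-DR and 22Rv1-DR this was so for RPIA (-0.78, 0.00146), PRPS2 (-0.75, 0.00153), DUT (-0.80, 0.0139), GMPS (-0.39, 0.0166) and MTRR (-0.48, 0.036). Between 22Rv1-DR and DU145-DR it was so for TYMS (-0.76, 0.00642), DUT (-0.94, 0.00771), RRM1 (-0.43, 0.0231), ADSS (-0.48, 0.0299) and RPIA (-0.49, 0.0383). Without the block, DESeq2 placed 7, 5 and 4 of the 34 past the test in these comparisons, in the same order, and edgeR 6, 3 and 2. All of these differences were negative. Of all 15295 genes, DESeq2 called 731, 292 and 312 negative and edgeR 544, 209 and 89.

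The hairpins were also compared directly. In DU145-DR and in 22Rv1-DR, 0 of the 34 differed between shGATA2b and shGATA2a by limma, edgeR or DESeq2, and 0 had an unadjusted p under 0.05 by any of them. All tested genes gave a limma background of 0% in both lines. In ARCaPM-DR 2 of the 34 differed, against a background of 0.803%. TKT, transketolase of the non-oxidative pentose phosphate pathway, had 10333, 10873 and 7583 normalised reads with shGATA2a and 20742, 18181 and 17593 with shGATA2b, against 11166, 10049 and 12223 in Control. The shGATA2b libraries stood well above all others and the shGATA2a libraries overlapped Control (shGATA2b over shGATA2a 0.99 on the log2 scale, SE 0.16, adjusted p = 0.0215). DCK, which phosphorylates deoxycytidine and activates its drug analogs, had 586, 511 and 711 normalised reads with shGATA2a and 281, 377 and 330.3 with shGATA2b, against 365, 425 and 398 in Control. Here the shGATA2a libraries stood above Control and 2 of the 3 shGATA2b libraries below it (-0.87, SE 0.16, adjusted p = 0.0468).

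Pooled over both hairpins, TKT and DCK had fold changes of 0.26 and 0.16 in ARCaPM-DR, neither past the test. The TKT difference was lost without any 1 of Control replicate 1, shGATA2a replicates 1 and 3 and the 3 shGATA2b libraries (adjusted p 0.0548 to 0.142). The DCK difference was lost without any 1 library except shGATA2a replicate 2 (0.0666 to 0.263), and with no filter on low values (0.0535). With the replicate block 7 of the 34 differed between hairpins in ARCaPM-DR, against 12.5% of all genes. Beside TKT and DCK these were DUT (shGATA2b over shGATA2a 0.68, block adjusted p = 0.0121), PRPS2 (0.45, 0.0133), PGD (0.38, 0.0135), MTHFD1L (0.36, 0.0256) and MTHFD1 (0.35, 0.0433). In the other lines TKT had 3887, 4968 and 3772 normalised reads with shGATA2a and 5252, 4263 and 3668 with shGATA2b, against 3882, 4859.6 and 4856 in Control in 22Rv1-DR and 5912, 6304 and 5182 normalised reads with shGATA2a and 6001, 7331 and 5533 with shGATA2b, against 5991, 6886 and 5535 in Control in DU145-DR. DCK had 691, 551 and 771 normalised reads with shGATA2a and 647, 656 and 777 with shGATA2b, against 808, 720.2 and 707 in Control in 22Rv1-DR and 529, 590.3 and 641 normalised reads with shGATA2a and 531, 458 and 560.0 with shGATA2b, against 420.1, 432 and 509.5 in Control in DU145-DR. The groups overlapped for both genes in both lines, and DCK was higher with knockdown in DU145-DR with the replicate block (0.28, adjusted p = 0.00634) and without Control replicate 3 (0.0422). TKT was higher with knockdown in ARCaPM-DR with the block (adjusted p = 0.043).

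In all, 23 of the 34 genes did not pass the test against Control in any line with both hairpins pooled. Their log2 fold changes ran from -0.54 to 0.26 in ARCaPM-DR, from -0.48 to 0.24 in 22Rv1-DR and from -0.30 to 0.28 in DU145-DR. Of the genes called, IMPDH2 and SHMT1 were shared by ARCaPM-DR and DU145-DR (2 of 9 and 2 of 4), and DUT by ARCaPM-DR and 22Rv1-DR (1 of 9 and 1 of 1). How many calls the lines shared among all genes is not given here, so this sharing cannot be set against a background.

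Further genes of the same pathways were read from 2 lists, 27 other one-carbon genes and 51 other nucleotide genes. In ARCaPM-DR 2 of 24 tested one-carbon genes rose and 2 fell, with a median of 0.04. These counts are near the background there of 9.86% higher and 8.62% lower. The genes that fell were DLD, the dihydrolipoamide dehydrogenase shared by the glycine cleavage system, which had 1075 ± 250.5 normalised reads with knockdown (SD, n = 6) and 2756 ± 111 in Control (SD, n = 3; -1.39, adjusted p = 5.4e-05), and GGH, which removes glutamates from folate (-0.61, adjusted p = 0.0182). MAT2B, the regulatory subunit of methionine adenosyltransferase, rose (0.74, adjusted p = 0.00267), as did ALDH1L2, the mitochondrial formyl-tetrahydrofolate dehydrogenase, at a low level of 33.8 ± 4.3 with knockdown and 17.4 ± 1.7 in Control (0.92). GGH was lost without Control replicate 1 or 3 (adjusted p = 0.0899 and 0.0702) and ALDH1L2 without Control replicate 1 or 2 (0.0554 and 0.0547). In DU145-DR 2 of 24 fell, MMACHC of cobalamin metabolism (-0.45) and AHCY, which clears S-adenosylhomocysteine (-0.46), near the background of 7.98%, and 0 rose, where the background was 8.72%, 3 had an unadjusted limma p under 0.05 in that direction, and edgeR placed 0 and DESeq2 1 higher. Both were lost without Control replicate 2 (adjusted p = 0.0567 and 0.0915) and in 1 fit of all 27 libraries (0.307 and 0.204). In 22Rv1-DR 0 of 25 passed by limma or edgeR and 3 were lower by DESeq2, with an unadjusted limma p under 0.05 for 7, all lower. Of all 13757 genes there, DESeq2 placed 126 lower, and 1379 had an unadjusted limma p under 0.05 in either direction.

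Of the other nucleotide genes, 4 rose and 6 fell among 51 tested in ARCaPM-DR, counts near the background of 9.86% higher and 8.62% lower. DPYD, which degrades pyrimidines and fluoropyrimidine drugs, had 1783 ± 446.5 normalised reads with knockdown (SD, n = 6) and 639 ± 117 in Control (SD, n = 3; 1.45, adjusted p = 0.00137). NT5E, the surface enzyme CD73 that turns AMP into adenosine, rose in ARCaPM-DR (0.70) and in DU145-DR (1.40, with 2544 ± 659 normalised reads with knockdown and 934 ± 41.6 in Control). RBKS, ribokinase, and RRM2B, the p53-inducible subunit of ribonucleotide reductase, fell in ARCaPM-DR (-1.91 and -1.47, adjusted p = 0.00401 and 0.00469). In DU145-DR 5 rose and 4 fell of 50, among them CMPK1, a pyrimidine nucleoside monophosphate kinase (0.39), NME4, a mitochondrial nucleoside diphosphate kinase (-0.81), and XDH, xanthine dehydrogenase, at a low level of 12.2 ± 4.1 with knockdown and 2.2 ± 0.3 in Control (1.96). The DU145-DR counts are likewise near the background of 8.72% higher and 7.98% lower. CMPK1 and NME4 were lost there without Control replicate 1 (adjusted p = 0.119 and 0.0611) or Control replicate 2 (0.084 and 0.0758), and CMPK1 in 1 fit of all 27 libraries (0.19). In 22Rv1-DR 0 of 49 passed by limma, edgeR or DESeq2, with an unadjusted limma p under 0.05 for 1 higher and 5 lower.

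Of 12 transcriptional regulators that are known to act on these genes or on the cell cycle, 11 were tested in each line. E2F3 fell in ARCaPM-DR (-0.58, adjusted p = 0.013), MXI1, a MAX-binding antagonist of MYC, fell in DU145-DR (-0.48), and ATF4, which induces serine and mitochondrial folate genes, rose in DU145-DR (0.26, adjusted p = 0.0372). With 1 of 11 called in each of these directions, the counts are near the background of 8.62% lower in ARCaPM-DR and of 8.72% higher and 7.98% lower in DU145-DR. The ATF4 call was lost with quantile normalisation (adjusted p = 0.143), with no filter (0.0561), in 1 fit of all 27 libraries (0.334) and without any 1 of Control replicates 1 and 2, shGATA2a replicates 1 and 2 and shGATA2b replicate 3 (0.0689 to 0.157). The E2F3 call was lost without Control replicate 1 or 2 (0.0705 and 0.0529). In 22Rv1-DR 0 of the 11 passed by limma, edgeR or DESeq2, with an unadjusted limma p under 0.05 for 1, higher.

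**Figure D4:**
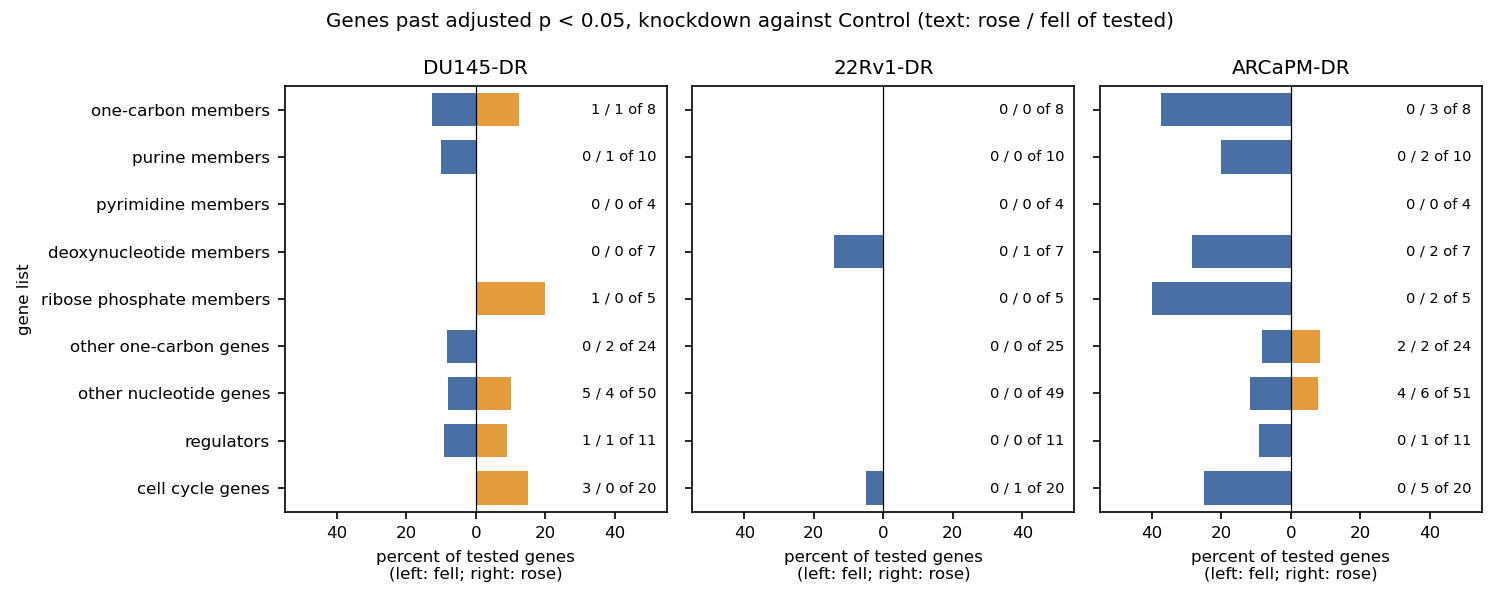
Bars give the percent of tested genes of each list that rose (right of 0) or fell (left of 0) with knockdown at an adjusted p of 0.05, in each line, and the text gives the counts. In ARCaPM-DR the one-carbon, purine, deoxynucleotide and ribose phosphate genes among the 34 have bars to the left. There 3 of 8, 2 of 10, 2 of 7 and 2 of 5 genes were lower, against a background of 8.62%. The 4 pyrimidine genes have no bar in any line.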

How the data were processed

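RNA was isolated with a column kit and sequenced by a standard Illumina protocol, per the labels' protocols. The submitters' processing notes name TopHat2 2.0.9, Cufflinks 1.3.0 and the build hg19 (GRCh37). No source used here names the tool that made the counts, the annotation or the use of strand. The deposited values are a signal, read counts per gene divided by 1 size factor per library. Whole reads were recovered from their steps for 99.954% of 433407 values above 0 (tolerance 0.005 of a read), and 199 values in 58 genes were not whole. In 22Rv1-DR Control replicate 2 and ARCaPM-DR shGATA2a replicate 2, 1 read was worth 0.992 and 0.9953, so near 1 that whole reads and rounded values are hard to tell apart there. Replicates differed by more than sampling noise (chi-square per degree of freedom 6.1 to 103.6).

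The main test was limma 3.58.1 in R 4.3.3, per line, on log2(value + 1) with a trended prior, for genes with at least 10 in at least 3 libraries, called at an adjusted p of 0.05. Differences between lines came from 1 fit of 27 libraries. Alternatives were a pseudocount of 0.1, no filter, TMM, quantile normalisation, whole-read genes only, 1 fit of all libraries, leaving libraries out, and edgeR 4.0.16 and DESeq2 1.42.0 on recovered reads. The tests were tried on simulated data. Tables used Python 3.11.15, numpy 2.4.6 and pandas 2.3.3.

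The labels do not say what a replicate number marks. The lowest correlation of deviations between same-numbered libraries over genes with a mean of at least 50 was 0.13 in ARCaPM-DR, 0.26 in 22Rv1-DR and 0.39 in DU145-DR. Over all tested genes it was 0.06, 0.21 and 0.28. The main test did not use the numbers, and the fit with the number as a block was an alternative. Blocked values are given where they change a call on the 34 genes with both hairpins pooled, between lines or between hairpins. For each hairpin alone the blocked calls are given as counts.

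The members and lists were chosen with earlier results of these data known. Per-library values are given for members called in at least 1 line and for MTHFD1, MTHFD2, MTHFD1L, SHMT1 and SHMT2. TKT and DCK, which differed between hairpins, were added after their values were seen. From each other list up to 4 called genes per line with the smallest adjusted p are named.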

Additional observations from a re-analysis of the deposited data

Results flagged for a closer look

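The change with knockdown differed between lines, by a test of the difference itself, for 7 genes in 9 comparisons. MTHFD1 differed in each pair of lines, by -1.98 (ARCaPM-DR minus DU145-DR), -1.03 (ARCaPM-DR minus 22Rv1-DR) and -0.95 (22Rv1-DR minus DU145-DR) on the log2 scale. DUT differed by -1.74, RPIA by -1.27, PRPS2 by -1.07, TYMS by -0.88 and SHMT2 by -0.76 between ARCaPM-DR and DU145-DR. PGD differed by -0.79 between 22Rv1-DR and DU145-DR. Of all tested genes, 3.41%, 1.2% and 0.621% had a negative difference, in the order given for MTHFD1. Neither call between 22Rv1-DR and DU145-DR passed the test with TMM scaling or quantile normalisation. There MTHFD1 was lost without any 1 of 15 and PGD without any 1 of 18 of the 27 libraries.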

How the results depend on the processing

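Counts of the 34 genes that passed the test moved with several choices. With the replicate block, 5 were higher and 8 lower in DU145-DR (19.6% and 19.2% of all genes). In 22Rv1-DR 4 were lower (0.741%), and in ARCaPM-DR 1 was higher and 17 lower (22.4% and 22.6%). Differences between lines with the block, all negative, numbered 10 (ARCaPM-DR minus DU145-DR), 6 (ARCaPM-DR minus 22Rv1-DR) and 7 (22Rv1-DR minus DU145-DR). Of all genes, 9.63%, 6.47% and 5.62% were called negative in those comparisons. Hairpin differences in ARCaPM-DR with the block numbered 7, against 12.5% of all genes. In 1 fit of all libraries, 1 was higher and 1 lower in DU145-DR, where 305 and 345 of all 15295 genes were. In that fit 3 were lower in 22Rv1-DR, where 140 of all genes were. DESeq2 placed 3 and edgeR 2 lower in 22Rv1-DR, where they placed 126 and 41 of all 13757 genes lower. Whole-read genes only gave 0 there and leaving out the 3 libraries numbered 3 gave 0, each with 1 of all genes lower. For ARCaPM-DR against 22Rv1-DR the count was 5 with DESeq2, 4 with TMM, 3 with edgeR, 2 with quantile normalisation and 2 without the 3 libraries numbered 3. For 22Rv1-DR against DU145-DR it was 4 with DESeq2, 0 with TMM, 0 with quantile normalisation and 1 without those 3 libraries. With no filter, 1 gene differed between hairpins in ARCaPM-DR. The cause of these shifts was not tested.

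Leaving out 1 library at a time gave 2 to 4 higher (4 without Control replicate 3) and 0 to 3 lower in DU145-DR (0 without Control replicate 2, 1 without Control replicate 1 or shGATA2a replicate 1). It gave 0 to 2 lower in 22Rv1-DR (2 without Control replicate 3, 0 without any other) and 5 to 12 lower in ARCaPM-DR (5 without Control replicate 1 or 2). Line differences ran from 5 to 8, 1 to 3 and 0 to 3 in the order above, and hairpin differences in ARCaPM-DR from 0 to 2. MTHFD1, DUT, RPIA, PRPS2 and MTHFD1L in ARCaPM-DR and PGD and SHMT2 in DU145-DR passed without each library in turn. The sign turned for MTHFD1L in DU145-DR (-0.03 without Control replicate 2, with a range of -0.03 to 0.1 over left-out libraries) and SHMT2 in 22Rv1-DR (0.17 with quantile normalisation, 0.12 without Control replicate 2, with a range of -0.17 to 0.12). Over 57 results on the 34 genes and GATA2, 1051 alternative values kept direction and side of the threshold, 100 lost and 34 gained a call, and 3 turned sign. Depth was 3.44 M reads in the shallowest library, and with 3 libraries a group small differences may be missed.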
